A study of Mus musculus with 6 samples.

Results

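Cathepsins are the proteases of the lysosome, the acidic organelle in which a macrophage breaks down what it has engulfed. Transcripts of 10 cathepsin genes, Ctsa, Ctsb, Ctsc, Ctsd, Ctsh, Ctsk, Ctsl, Ctso, Ctss and Ctsz, were measured in BMDM, macrophages grown in culture from mouse bone marrow. The genes were taken by symbol, and all 10 were found among the 55291 genes of the deposited table. Of the 6 poly(A) RNA libraries, 3 came from BMDM pretreated with apoptotic cells (AC pretreated) and 3 from BMDM given no apoptotic cells (untreated). The labels give both groups as BMDM and name no further treatment. The sources used here do not state the mouse strain, or the source, dose and timing of the apoptotic cells. Nor do they say whether replicates were separate cultures or mice, so the p-values cover the spread between these 6 libraries, and that spread may be technical.

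Cathepsins are made as inactive precursors, carried to the lysosome mostly by mannose 6-phosphate receptors, and activated there by cleavage in the acidic lumen. Most are cysteine proteases related to papain, whereas Ctsd is an aspartic protease and Ctsa a serine carboxypeptidase. Some cut within a protein chain and others trim its ends, and in macrophages they digest phagocytosed cargo and prepare peptides for MHC class II molecules. Cystatins bind and block the cysteine cathepsins.

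Each level is a TPM, a gene's length-corrected part of 1000000 transcripts in its library. A log2 difference is AC pretreated less untreated, in log2(TPM + 1), with its SE, and understates the change of low genes. The read totals recovered from the values lay between 19330350 and 32649089 per library, and 903192 to 1556273 of those reads fell on the 10 cathepsins. The macrophage markers were present in every library: 9 of 10 lay between 55.0 TPM (the lowest Mertk value) and 4592 TPM (the highest Cd68 value) throughout, while Lyz2, the lysozyme gene, stood at 9270 TPM or more in 5 libraries and at 83.7 TPM in untreated replicate 1. The 14 thymocyte and T cell markers summed to 1.02 to 1.58 TPM in AC pretreated and 0.871 to 1.91 TPM in untreated libraries, with each below 1 TPM in all 6 libraries. The 10 neutrophil markers summed to 41.6 to 61.2 TPM in AC pretreated and 38.4 to 74.5 TPM in untreated libraries. The 8 dendritic cell markers summed to 23.4 to 29.8 TPM and 22.6 to 34.4 TPM in the same order of groups, and the 6 B cell markers to 2.51 to 3.67 TPM and 2.68 to 4.21 TPM. The 6 fibroblast markers were below 1 TPM in all libraries. The small RNA gene Gm23935 took 73936 TPM in AC pretreated replicate 3, against 9648 to 13452 TPM in the other 5 libraries, which lowers every other gene's TPM there. The 16 placental markers summed to 26.8, 129 and 0.211 TPM in AC pretreated replicates 1, 2 and 3, against 15.9, 30.1 and 0.232 TPM in untreated replicates 1, 2 and 3.

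Together the 10 cathepsins held similar shares of the transcripts in both groups, most of it as Ctss, Ctsb and Ctsd. Their summed level was 48633, 50955 and 45297 TPM in AC pretreated replicates 1, 2 and 3, against 45075, 45854 and 48538 TPM in untreated replicates 1, 2 and 3. The groups overlapped, with means of 48295 ± 2844 TPM in AC pretreated and 46489 ± 1816 TPM in untreated libraries (SD, n = 3 each), or 4.83 ± 0.284% and 4.65 ± 0.182% of all transcripts. With Gm23935 left out of the scaling the means were 49931 ± 1497 TPM and 47028 ± 1926 TPM. Of the 10 members, 0 had an adjusted p under 0.05 by limma over all genes tested, against 0% of the 12603 genes, and every member had an adjusted p of 0.99995. At an unadjusted p under 0.05 by limma there were again 0 of the 10, against 1.3% of all genes tested. By voom on the recovered reads 0 of 12202 genes passed, 97 (0.795%) had an unadjusted p under 0.05, and 0 of the 10 members passed, with Ctsl at an unadjusted p of 0.0465. The values of AC pretreated and untreated libraries overlapped for all 10 members, so 0 of the 10 were separated between the groups, against 4.42% of the genes tested. Overlap was counted in the main scaling only, with Gm23935 included. Mean log2 levels were higher in AC pretreated cells for 5 members and lower for 5, with a median difference of 0.01 in a range of -0.29 to 0.36. Over all genes tested 70.6% had a lower mean, and the median difference was -0.07.

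The intervals of the differences bounded the size of a change in the main limma fit, and the bounds moved with the settings. The 95% interval lay inside 1.5-fold for 6 of the 10 members (Ctsa, Ctsb, Ctsh, Ctso, Ctss and Ctsz), against 46.1% of all genes tested, and inside 2-fold for all 10. The widest bounds were a 1.72-fold increase for Ctsl and a decrease to 0.629 of the untreated level for Ctsc. The SE of a log2 difference had a median of 0.17 over the members and 0.21 over all genes tested. Under median-of-ratios scaling the upper bounds of Ctsa (0.593 in log2), Ctsb and Ctss (each 0.63) and Ctsz (0.645) lay outside 1.5-fold. Of the members named above, only Ctsh and Ctso stayed inside 1.5-fold there. With no filter on low values the interval of Ctss ran from -1.31 to 1.26 in log2, outside 2-fold. The upper bounds of Ctsb (1.01) and Ctsd (1.11) were then also outside 2-fold. With sample quality weights the interval of Ctss was narrower, at -0.08 to 0.43.

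**Figure D1:**
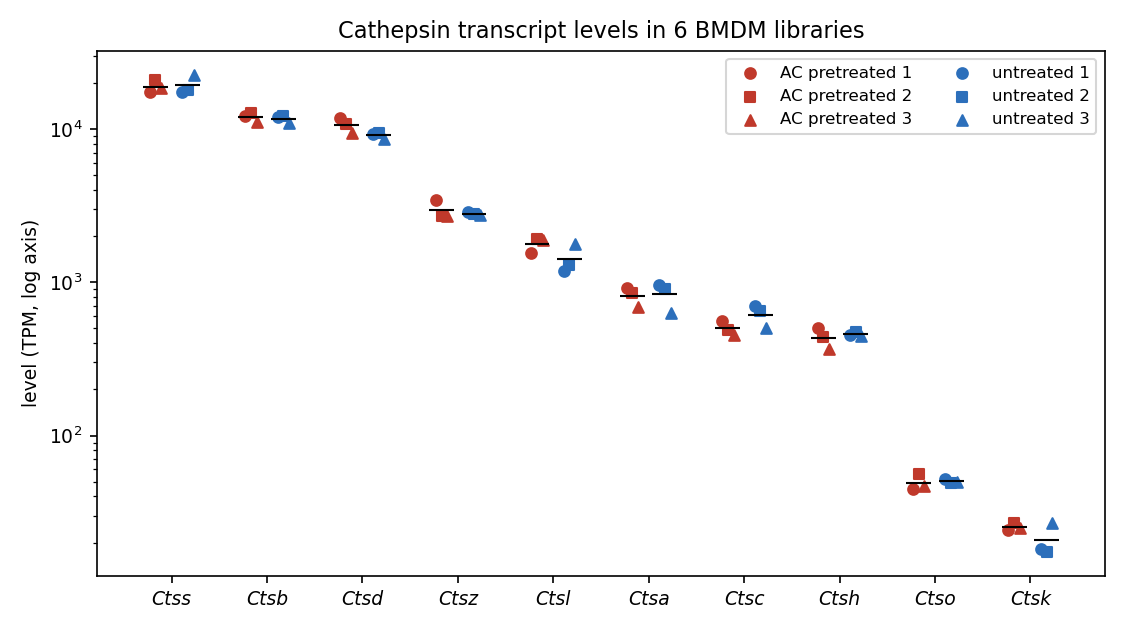
TPM of the 10 cathepsins on a log axis, with 1 symbol per library (AC pretreated in red, left of untreated in blue, circle, square and triangle for replicates 1, 2 and 3) and a black line at each group mean. The family runs from Ctss at 17401 TPM or more to Ctsk at 26.8 TPM or less, and red and blue symbols overlap for every gene.

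The order of the levels was the same in all 6 libraries for each of the 9 neighbouring pairs: Ctss, Ctsb, Ctsd, Ctsz, Ctsl, Ctsa, Ctsc, Ctsh, Ctso and Ctsk, from high to low. Ctss ranked 4, Ctsb 5 and Ctsd 11 among the 12603 genes tested, and together these 3 held 85.5 to 87.3% of the summed cathepsin level in each library. Ctsz ranked 33, Ctsl 67, Ctsa 152, Ctsc 246 and Ctsh 318, whereas Ctso ranked 2782 and Ctsk 4937. The largest step between neighbours was 9.01-fold, from Ctsh to Ctso. For 3 of the 9 pairs the ranges over the 6 libraries overlapped, and those were Ctsb and Ctsd, Ctsa and Ctsc, and Ctsc and Ctsh. These levels divide reads by the merged length of all annotated exons, which is 6489 bases for Ctsl and 1358 bases for Ctss. Divided by the length of the shortest principal transcript (1971 bases for Ctsl), Ctsl held 9.19 ± 1.58% of the summed level (SD, n = 6 libraries) in place of 3.37 ± 0.593%, and passed above Ctsz. By that measure Ctsa ranked below Ctsc and Ctsh, while Ctss, Ctsb and Ctsd stayed the top 3 in the same order, so 7 of the 9 neighbouring pairs kept their order.

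Ctss encodes cathepsin S, the endopeptidase that removes the invariant chain from MHC class II in antigen-presenting cells. It stood at 17401, 20967 and 18539 TPM in AC pretreated replicates 1, 2 and 3, against 17518, 17936 and 22736 TPM in untreated replicates 1, 2 and 3. The highest value belonged to an untreated library and the lowest to an AC pretreated one, and the groups overlapped. Its log2 difference was -0.03 ± 0.19. Ctss lies on chromosome 3 (mm10, 95526786 to 95556403), 17423 bases downstream of Ctsk on the same strand. The promoter of Ctss is shown because Ctss is the most abundant member. It holds GAGGAAGT, a purine-rich sequence of the kind bound by the macrophage factor PU.1, on the reverse strand (capitals), beginning at base -2 from the transcript start. RefSeq (GRCm38.p6) gives 250 bases before the start and 50 after it, on the gene's strand, at chr3:95526536-95526835:
Ctss: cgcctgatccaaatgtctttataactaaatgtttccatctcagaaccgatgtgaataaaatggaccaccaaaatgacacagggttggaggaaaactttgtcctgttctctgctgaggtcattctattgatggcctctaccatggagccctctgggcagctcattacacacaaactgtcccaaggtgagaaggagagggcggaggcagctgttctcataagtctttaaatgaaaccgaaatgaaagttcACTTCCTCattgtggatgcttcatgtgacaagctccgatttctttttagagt

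Ctsb encodes cathepsin B, a cysteine protease that also trims dipeptides from the ends of chains. Its level was 12292, 12690 and 11185 TPM in AC pretreated replicates 1, 2 and 3, against 11955, 12253 and 11017 TPM in untreated replicates 1, 2 and 3. Replicate 3 was the lowest library in each group, and the log2 difference was 0.04 ± 0.16. By reads, which are not scaled by length, Ctsb was the largest member, with 425762 to 803145 reads per library. Of its exon bases (chromosome 14, 63122462 to 63145923), 12.8% overlap exons of Fdft1 on the opposite strand, a gene at 4.75 to 6.26 TPM.

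Ctsd encodes cathepsin D, the aspartic protease of the set. It stood at 11889, 10782 and 9411 TPM in AC pretreated replicates 1, 2 and 3, against 9339, 9488 and 8617 TPM in untreated replicates 1, 2 and 3. Replicates 1 and 2 of the AC pretreated group lay above all untreated libraries, while AC pretreated replicate 3 lay below untreated replicate 2. The means were 10694 ± 1241 and 9148 ± 466 TPM (SD, n = 3 each), a log2 difference of 0.22 ± 0.16 (95% interval -0.16 to 0.60). The difference was 0.14 without AC pretreated replicate 1. AC pretreated replicate 3 was also the library with the highest Gm23935 level. With Gm23935 left out of the scaling the difference was 0.25 ± 0.14 (95% interval -0.07 to 0.57). Overlap of the groups was not examined in that scaling. Exons of Ctsd (chromosome 7, 142375911 to 142388038) share 34.4% of their bases with the predicted gene Gm49369 on the same strand, which is listed at 0 in all libraries. How reads in these shared bases were assigned was not examined, and it could alter the level of Ctsd.

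Ctsl encodes cathepsin L, a strong endopeptidase that also matures other lysosomal enzymes. Its level was 1565, 1925 and 1884 TPM in AC pretreated replicates 1, 2 and 3, against 1180, 1293 and 1768 TPM in untreated replicates 1, 2 and 3. Untreated replicates 1 and 2 were low, untreated replicate 3 lay among the AC pretreated libraries, and the groups overlapped. The means were 1792 ± 197 and 1414 ± 312 TPM (SD, n = 3 each), and the log2 difference of 0.36 ± 0.19 (95% interval -0.07 to 0.79, unadjusted p = 0.0904 by limma) was the largest of the family. It was 0.24 without untreated replicate 1. Among the 4 libraries with placental cathepsin reads (replicates 1 and 2 of both groups) it was 0.49 ± 0.17, with an adjusted p of 0.891 by limma. Between the replicate 3 libraries it was 0.09. With sample quality weights, which gave AC pretreated replicate 1 a weight of 0.181 and untreated replicate 2 a weight of 7.24, Ctsl was the 1 member that passed, at 0.55 ± 0.11 and an adjusted p of 0.0441 by limma, where 276 of the 12603 genes tested (2.19%) passed. Over all alternatives its adjusted p ranged from 0.0441 to 1. Of the exon bases of Ctsl (chromosome 13, 64359337 to 64370890), 26.8% overlap the antisense gene Gm47123, listed at 0 in all libraries. A further overlap of 6.09% is with the pseudogene Gm49230 on the same strand, also listed at 0. How reads in these shared bases were assigned was likewise not examined.

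Ctsk encodes cathepsin K, best known as the collagen-degrading protease of osteoclasts. It was the lowest member, at 24.1, 26.7 and 24.8 TPM in AC pretreated replicates 1, 2 and 3, against 18.1, 17.4 and 26.8 TPM in untreated replicates 1, 2 and 3. As for Ctsl, untreated replicates 1 and 2 were low and untreated replicate 3 was as high as the AC pretreated libraries. The log2 difference was 0.29 ± 0.19 (95% interval -0.15 to 0.73). It was 0.18 without untreated replicate 2 and 0.48 without untreated replicate 3. Among replicates 1 and 2 of both groups it was 0.49 ± 0.18, with an adjusted p of 0.891 by limma, and between the replicate 3 libraries it was -0.11. Ctsk rested on 197 to 330 reads per library, whose counting error alone was 7.12% at the lowest, against a CV between replicates of 5.46% in AC pretreated and 25.2% in untreated libraries. The 8 osteoclast markers summed to 53.0 to 60.6 TPM in AC pretreated and 53.1 to 66.4 TPM in untreated libraries. Of them Acp5 stood at 27.4 to 33.6 TPM and Nfatc1 at 16.7 to 27.8 TPM over the 6 libraries. In contrast, 3 of the 8, among them the calcitonin receptor gene Calcr, stayed below 1 TPM throughout. In such bulk libraries, fewer cells of a type and less RNA per cell cannot be told apart.

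Ctsc encodes cathepsin C, a dipeptidyl peptidase known for activating the granule proteases of neutrophils and mast cells. It stood at 562, 488 and 453 TPM in AC pretreated replicates 1, 2 and 3, against 698, 646 and 502 TPM in untreated replicates 1, 2 and 3. The 2 highest values were untreated and the 2 lowest AC pretreated, and untreated replicate 3 lay among the AC pretreated libraries. The means were 501 ± 55.6 and 616 ± 102 TPM (SD, n = 3 each), and the log2 difference of -0.29 ± 0.17 (95% interval -0.67 to 0.09) was the most negative of the family. It was -0.19 without untreated replicate 1.

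Ctsa encodes cathepsin A, the carboxypeptidase that also stabilises the lysosomal sialidase and beta-galactosidase. Its level was 913, 853 and 688 TPM in AC pretreated replicates 1, 2 and 3, against 967, 907 and 628 TPM in untreated replicates 1, 2 and 3. The replicate 3 library of each group was the lowest, below all 4 other libraries, and the log2 difference was -0.01 ± 0.20. Its sign turned under several alternatives, among them median-of-ratios scaling (0.05). The strand setting of the counting is not stated, so reads of opposite strands cannot be told apart, and 10.5% of the exon bases of Ctsa overlap Pltp on the opposite strand, a gene at 2158 to 2647 TPM.

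The remaining members differed little. Ctsz, which encodes the carboxypeptidase cathepsin Z, stood at 3441, 2728 and 2698 TPM in AC pretreated replicates 1, 2 and 3, against 2898, 2787 and 2743 TPM in untreated replicates 1, 2 and 3, with AC pretreated replicate 1 above the rest. Its difference of 0.06 ± 0.15 was -0.05 without that library. Ctsh, which encodes the aminopeptidase cathepsin H, stood at 501, 437 and 368 TPM in AC pretreated replicates 1, 2 and 3, against 451, 477 and 449 TPM in untreated replicates 1, 2 and 3. The AC pretreated values spread on both sides of the untreated ones, with CVs of 15.3% and 3.45%, and the difference of -0.09 ± 0.15 was 0.03 without AC pretreated replicate 3. Ctso, a less studied cysteine cathepsin gene, stood at 44.6, 56.2 and 46.5 TPM in AC pretreated replicates 1, 2 and 3, against 52.0, 48.6 and 49.8 TPM in untreated replicates 1, 2 and 3. Its CV was likewise wider in the AC pretreated group, at 12.7% against 3.50%, and its difference was -0.04 ± 0.14 (0.03 without AC pretreated replicate 1).

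**Figure D2:**
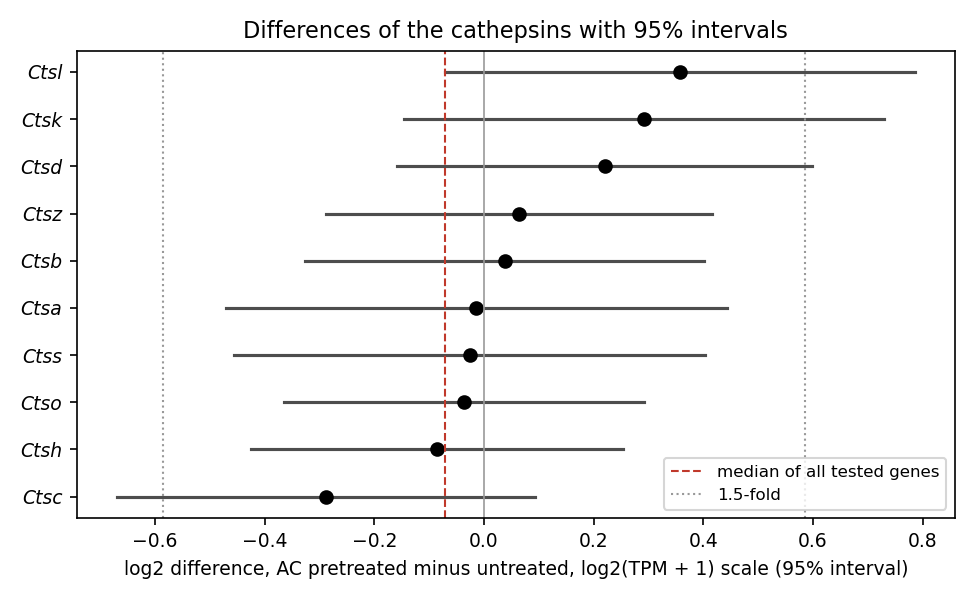
Log2 differences of the 10 cathepsins, AC pretreated minus untreated, as points with 95% intervals (horizontal axis, log2(TPM + 1) scale). All 10 intervals cross 0, and 6 lie between the dotted 1.5-fold lines; the dashed line is the median of all tested genes, -0.07.

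The members differed in which libraries were high and low. Relative to its own mean over the 6 libraries, Ctsl was lowest in untreated replicate 1 (-0.42) and Ctsk in untreated replicate 2 (-0.36), whereas Ctsc was highest in untreated replicate 1 (0.34). Of the 10 members, 6 had their lowest value in a replicate 3 library: Ctsa, Ctsb and Ctsd in untreated replicate 3, and Ctsc, Ctsh and Ctsz in AC pretreated replicate 3. In AC pretreated replicate 3, 8 of 10 members lay below their own mean. The TPM share of Gm23935 was also highest in that library, and its part in these counts was not tested. Neither count was made over all genes tested, so neither can be read as particular to the cathepsins. Ctss and Ctsk were highest in untreated replicate 3.

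**Figure D3:**
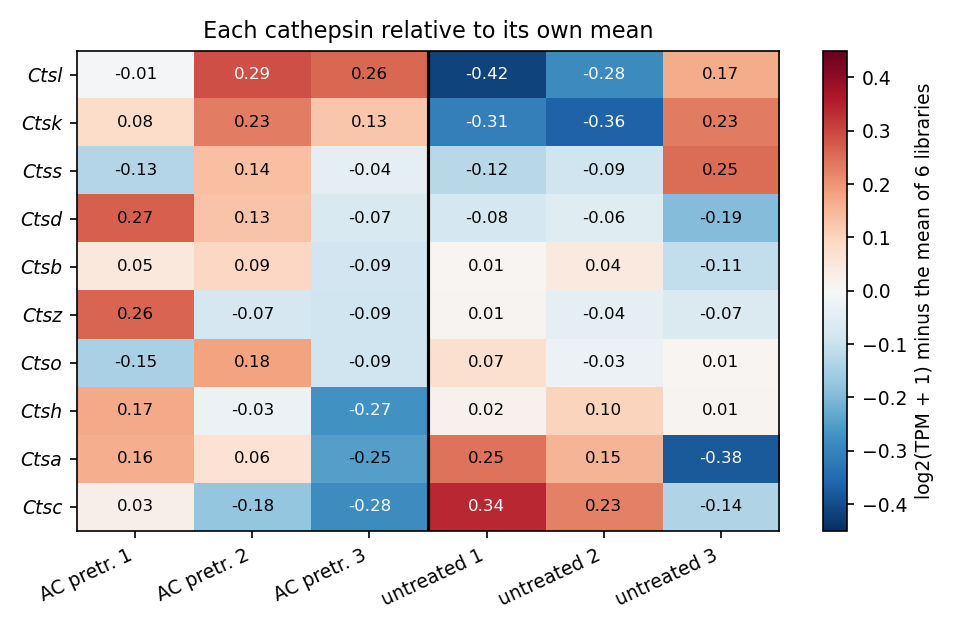
Each cathepsin's log2(TPM + 1) minus its own mean over the 6 libraries (rows are genes, columns libraries, AC pretreated left of the line and untreated right of it, red above and blue below the mean). Ctsl and Ctsk are low in untreated replicates 1 and 2 (-0.28 to -0.42), where Ctsc is high (0.23 and 0.34).

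A ratio of 2 members within a library does not depend on how the library is scaled, so the ratios of all 45 pairs were examined, a step chosen after the values were seen. For 8 of the 45 pairs (17.8%) the AC pretreated and untreated ratios did not overlap, against 4.43% of all 79411503 pairs of tested genes. The 8 pairs share members, with Ctsd in 4 and Ctsc in 3, so they are not independent, and no test was made of their number. The share over all pairs includes many genes at lower levels than the cathepsins, so it is not a matched comparison. With 3 libraries per group, an exact test of a single pair could not reach a p under 0.1. The ratio of Ctsc to Ctsd was 0.0473, 0.0453 and 0.0481 in AC pretreated replicates 1, 2 and 3, against 0.0748, 0.0681 and 0.0583 in untreated replicates 1, 2 and 3. Every AC pretreated library thus held less Ctsc per Ctsd than every untreated one. The ratio of Ctsl to Ctss was 0.0900, 0.0918 and 0.102 in AC pretreated replicates 1, 2 and 3, against 0.0674, 0.0721 and 0.0778 in untreated replicates 1, 2 and 3, and was higher in every AC pretreated library. The ratio of Ctsk to Ctss averaged 0.00133 ± 0.0000542 and 0.00106 ± 0.000107 (SD, n = 3 each), likewise with no overlap. The ratio of Ctsb to Ctsd averaged 1.13 ± 0.0861 in AC pretreated and 1.28 ± 0.00706 in untreated libraries, and that of Ctsa to Ctsc 1.63 ± 0.114 and 1.35 ± 0.0831. The other 3 pairs were Ctsc to Ctsz, Ctsd to Ctsh and Ctsd to Ctsz. When each library's trend of level on exon length was removed, 6 of the 45 pairs did not overlap, against 5.17% of all pairs. Of the 8 pairs, 4 remained: Ctsa to Ctsc, Ctsc to Ctsd, Ctsk to Ctss and Ctsl to Ctss.

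**Figure D4:**
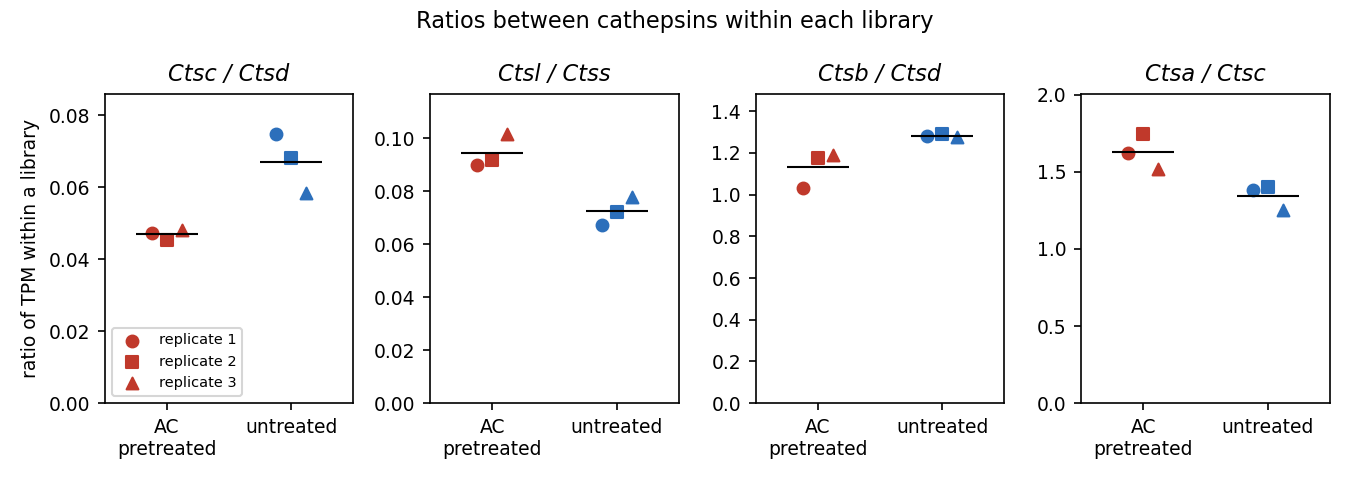
Ratios of TPM within a library for 4 of the 8 cathepsin pairs whose groups did not overlap, picked for that separation (AC pretreated in red, untreated in blue, circle, square and triangle for replicates 1, 2 and 3, black lines for group means, axes from 0). The ratio of Ctsc to Ctsd is at most 0.0481 in AC pretreated and at least 0.0583 in untreated libraries.

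The promoters of the members were searched for CACGTG, the E-box core bound by the MiT/TFE factors that control lysosomal genes, for its longer form TCACGTG, which contains it, and for GAGGAAGT, each on both strands. RefSeq promoters were matched for 8 of the 10 members, all except Ctsb and Ctsh, with 9 promoters in all. CACGTG was present in 3 of the 9, those of Ctsa, Ctsd and Ctsl, and in 7.15% of all 32851 promoters of the same length. TCACGTG was present in those of Ctsa and Ctsd, against 3.77% of all promoters, and GAGGAAGT in those of Ctsc and Ctss, against 1052 of the 32851. A match is a description of the letters and not evidence of binding. The 3 promoters with CACGTG are shown because MiT/TFE factors are the best known regulators of the family, with CACGTG in capitals. Counted from the transcript start, it begins at bases -245 and -98 of Ctsd (chr7:142387778-142388077, minus strand), at base -236 of Ctsl (chr13:64370471-64370770, minus strand), and at bases -12 and 6 of Ctsa (the downstream of its 2 RefSeq promoters, chr2:164833523-164833822, plus strand).
Ctsd: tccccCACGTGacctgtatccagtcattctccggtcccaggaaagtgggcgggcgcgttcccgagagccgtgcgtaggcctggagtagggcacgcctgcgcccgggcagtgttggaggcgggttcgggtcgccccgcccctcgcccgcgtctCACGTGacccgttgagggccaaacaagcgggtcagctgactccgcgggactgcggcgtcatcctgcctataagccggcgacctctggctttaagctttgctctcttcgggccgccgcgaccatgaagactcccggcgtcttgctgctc
Ctsl: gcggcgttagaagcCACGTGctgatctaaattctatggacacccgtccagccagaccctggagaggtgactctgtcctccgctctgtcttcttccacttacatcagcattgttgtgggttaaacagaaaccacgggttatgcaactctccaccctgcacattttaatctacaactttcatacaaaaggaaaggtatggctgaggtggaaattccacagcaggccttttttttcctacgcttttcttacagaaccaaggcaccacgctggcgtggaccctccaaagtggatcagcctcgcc
Ctsa: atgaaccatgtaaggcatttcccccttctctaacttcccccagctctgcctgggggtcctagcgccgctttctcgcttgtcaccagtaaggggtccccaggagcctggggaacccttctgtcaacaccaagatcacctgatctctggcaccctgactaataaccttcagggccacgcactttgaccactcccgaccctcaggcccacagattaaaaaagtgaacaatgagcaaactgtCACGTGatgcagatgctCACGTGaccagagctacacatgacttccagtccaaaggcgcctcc

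The differences of these 3 genes were 0.22 ± 0.16 for Ctsd, 0.36 ± 0.19 for Ctsl and -0.01 ± 0.20 for Ctsa, whose sign turned under other scalings as given above. Genes of the MiT/TFE factors themselves were expressed at modest levels, with 0 of 4 called by limma in either direction and 1 higher and 3 lower means (median difference -0.07). Tfeb averaged 27.1 ± 2.17 and 28.2 ± 3.95 TPM, Tfe3 43.6 ± 5.49 and 46.6 ± 4.71 TPM, Mitf 38.8 ± 10.8 and 42.0 ± 2.49 TPM, and Tfec 13.3 ± 1.80 and 12.5 ± 1.84 TPM in AC pretreated and untreated libraries (SD, n = 3 each). All 4 differences were smaller than their SE, with Mitf at -0.15 ± 0.21.

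In the lists of other genes that follow, 0 tested genes had an unadjusted p under 0.05 by limma. The genes that tag and sort cathepsins to the lysosome were all expressed, and 0 of 12 were called in either direction by limma. Of them 2 had a higher mean and 10 a lower mean, with a median difference of -0.09, against -0.07 over all genes. M6pr, the cation-dependent mannose 6-phosphate receptor gene, averaged 257 ± 15.5 TPM in AC pretreated and 284 ± 14.3 TPM in untreated libraries, a difference of -0.14 ± 0.12. It was the 1 gene of the 12 whose groups did not overlap, against 4.42% of all genes tested. Gnptg, a subunit gene of the enzyme that starts the mannose 6-phosphate tag, differed by -0.15 ± 0.13, Nagpa, which uncovers the tag, by -0.09 ± 0.16, and Ap1b1, a subunit gene of the AP-1 sorting adaptor, by -0.17 ± 0.16.

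Of 11 processing proteases and partners of the cathepsins, 0 were called by limma, 6 had a higher and 5 a lower mean, and the median difference was 0.01. Lgmn, which encodes legumain, the protease that cleaves several cathepsins to their mature chains, averaged 4639 ± 636 and 4631 ± 528 TPM, a difference of under 0.01 on the log2 scale (SE 0.17). Cd74, the invariant chain that Ctss cleaves, stood at 2104, 2794 and 2165 TPM in AC pretreated replicates 1, 2 and 3, against 1206, 1850 and 2489 TPM in untreated replicates 1, 2 and 3, a difference of 0.40 ± 0.26. Untreated replicate 1 was the lowest library for Cd74, as it was for Ctsl. Ifi30, a lysosomal thiol reductase gene, differed by 0.11 ± 0.14, Tpp1, a tripeptidyl peptidase gene, by 0.14 ± 0.18, and Grn, the progranulin gene, by -0.13 ± 0.18.

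Inhibitors of the cathepsins were led by Cst3, the secreted cystatin C gene, at 3889 ± 572 TPM in AC pretreated and 3911 ± 159 TPM in untreated libraries (difference -0.02 ± 0.16). Its level equalled 9.49 to 12.6% of the summed cysteine cathepsin level in AC pretreated and 10.4 to 11.2% in untreated libraries. Cstb, the cytosolic cystatin B gene, averaged 1901 ± 330 and 1897 ± 209 TPM. Cst7, which encodes cystatin F, an inhibitor made by immune cells that enters lysosomes, stood at 57.7, 22.0 and 14.9 TPM in AC pretreated replicates 1, 2 and 3, against 46.7, 48.6 and 15.7 TPM in untreated replicates 1, 2 and 3. It varied more within each group than between them, and the replicate 3 library was the lowest in both. Of 14 inhibitor genes 7 passed the filter on low values, 0 were called by limma, 2 had a higher and 5 a lower mean, and the median difference was -0.02. The smallest p belonged to Serpinb6b (-0.31 ± 0.17), and Serpinb6a and Serpinb9 differed by 0.08 ± 0.14 and -0.08 ± 0.17. The 5 stefin and cystatin genes Csta1, Stfa1, Stfa2, Stfa2l1 and Stfa3 were listed at 0 in all libraries.

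The other cathepsins of blood and surface cells were scarce, and 0 of the 2 that passed the filter on low values (of 4) were called by limma. Ctse, an aspartic cathepsin gene, averaged 4.88 ± 1.47 and 6.13 ± 1.13 TPM, a difference of -0.29 ± 0.24. Ctsf stood at 5.10, 5.03 and 5.65 TPM in AC pretreated replicates 1, 2 and 3, against 5.99, 6.10 and 6.15 TPM in untreated replicates 1, 2 and 3. Its difference was -0.18 ± 0.17, and its groups did not overlap, as was the case for 4.42% of all genes tested. Ctsg, the serine protease of neutrophil granules, and Ctsw, of cytotoxic lymphocytes, reached at most 1.70 and 0.914 TPM.

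A further branch of the family is made in rodents by the placenta from a cluster of Ctsl-related genes on chromosome 13, and its transcripts were detected at low levels in 4 of these 6 macrophage libraries. Of the 9 placental cathepsin genes, 6 had reads: 147, 395 and 0 reads in all in AC pretreated replicates 1, 2 and 3, against 41, 181 and 0 reads in untreated replicates 1, 2 and 3. A count of 0 allows up to 3 reads in each replicate 3 library, and counting error is the only error this covers. Ctsj stood at 3.87, 12.5 and 0 TPM in AC pretreated replicates 1, 2 and 3, against 0.781, 3.69 and 0 TPM in untreated replicates 1, 2 and 3. Ctsq had 1.78, 10.3 and 0 TPM in the AC pretreated and 0.750, 1.94 and 0 TPM in the untreated replicates in the same order. Both were highest in AC pretreated replicate 2 and listed at 0 in the replicate 3 libraries of both groups, as were Cts3 and Cts6, which reached 5.87 and 3.78 TPM. Of the 4 genes that passed the filter on low values 0 were called by limma, all 4 had higher means in AC pretreated cells, and their median difference was 0.77, while the groups of every one overlapped. The summed placental markers, given above, were also higher in these 4 libraries than in the replicate 3 libraries. The placental cathepsins summed to 0.0195, 0.0677 and 0% of the level of the 10 lysosomal cathepsins in AC pretreated replicates 1, 2 and 3, against 0.00748, 0.0214 and 0% in untreated replicates 1, 2 and 3. The nearest placental cathepsin lies 2789 kb from Ctsl. Among the transcripts of all 23 cathepsin genes compared, the longest run of identical bases between a lysosomal cathepsin and any other was 38 bases, and 22 bases between Ctsl and Ctsm, against sequenced reads of 150 bases. Such runs do not measure how reads were assigned, nor any lysosomal cathepsin transcripts that came with the placental RNA. The part of this RNA in the levels of the lysosomal cathepsins was not tested.

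**Figure D5:**
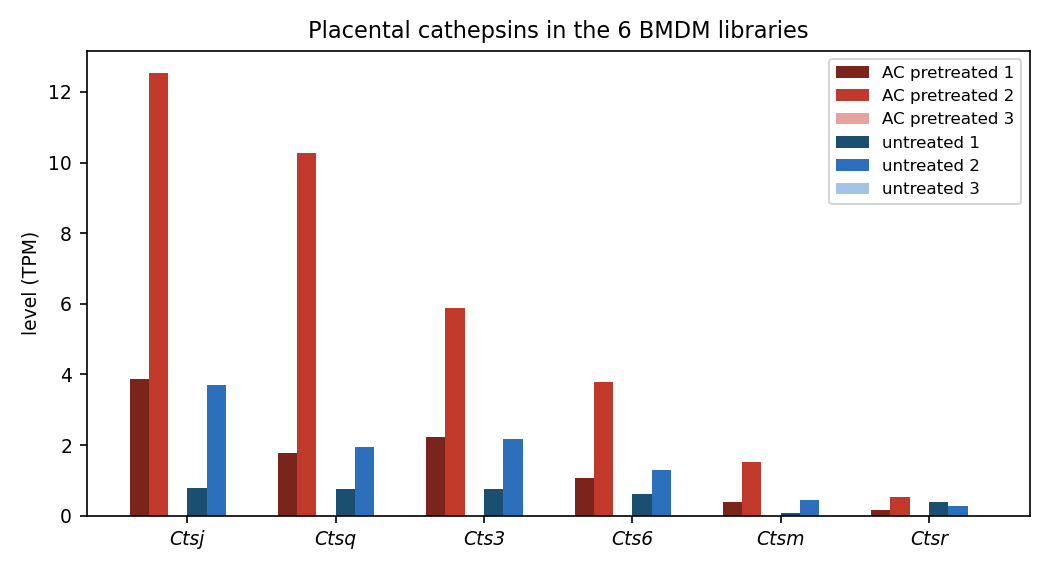
TPM of the 6 placental cathepsins with reads, in bars by library from AC pretreated replicates 1 to 3 (red shades) to untreated replicates 1 to 3 (blue shades). AC pretreated replicate 2 is the highest for each, up to 12.5 TPM for Ctsj, and both replicate 3 libraries are at 0.

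The genes whose level followed the summed cathepsin level most closely over the 6 libraries, among 8601 genes with a mean of at least 5 TPM, were Prdx1 (r = 0.993), Blvra (0.983), Fdx1 (0.979), Mcts1 (0.973) and Rpf2 (0.970). These are Pearson correlations of log2 levels over 6 libraries, given as a description, and the values share each library's scaling and depth. Prdx1, a peroxiredoxin gene, stood at 1031, 1207 and 759 TPM in AC pretreated replicates 1, 2 and 3, against 761, 849 and 1016 TPM in untreated replicates 1, 2 and 3, with the same order of libraries at the top as the summed cathepsins.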

How the data were processed

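The deposited table gives a signal per gene and library that the authors named TPM. The submitters' processing notes name STAR 2.7.10a, featureCounts 2.0.3, Subread and mm10, with no order. The annotation and strand setting are not stated. Columns sum to 54732 to 92831, so the signal was not scaled for library size. Multiplied by merged exon length (GENCODE mouse release 21) and divided by 8.57, it gave whole reads in all libraries (within 0.02) for 98.5% of 23829 genes. Each library was rescaled to sum to 1000000. The test was limma 3.58.1 in R 4.3.3 (eBayes with trend, 2-sided) on log2(TPM + 1), for genes that reached 1 TPM in 3 or more libraries, with Benjamini-Hochberg adjustment over 12603 genes and a threshold of 0.05. The procedure was tried on simulated data with a single fixed spread for all genes and no library differences other than depth. These libraries differed more than that, so the trial does not measure the power of the test here. Tables and figures were made in Python 3.11.15 with pandas 2.3.3, numpy 2.4.6 and matplotlib 3.10.9.

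The members and lists were chosen with earlier results of these data known. All members are named, and of each further list at most 4 genes with the smallest p, plus Lgmn, Cst3, Cstb, Cst7, Cd74, Ifi30, Ctse, Tfec, Mitf, Lyz2 and Gm23935, the 5 genes most like the summed level, and genes singled out after their values were seen for level, absence or overlap. The ratios were also chosen after the values were seen. Alternatives varied the pseudocount, the low-value filter, the scaling and the variance model, used voom on recovered reads, took the replicate number as a block, or left libraries out. Removal of a length trend and principal transcript lengths were added after seeing the data. All replicate pairs differed beyond sampling noise.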

Additional observations from a re-analysis of the deposited data

How the results depend on the processing

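Against 0 genes called by limma (164 at an unadjusted p under 0.05; voom 0 and 97), values as deposited called 16, eBayes without trend 1 and sample quality weights 276, of which 1 was a cathepsin (Ctsl). Leaving out 1 library called 0 genes and 0 cathepsins each time. The replicate block called 0 genes and 0 cathepsins, with a Ctsl difference of 0.36, and changed no call. The labels do not say that replicate numbers pair libraries, so the numbers were not taken as pairs. Deviations of same-numbered libraries correlated at -0.06, 0.01 and 0.17, and those of differently numbered ones at -0.34 to 0.34. With 3 libraries per group these correlations cannot decide whether same-numbered libraries share a pattern. Both replicate 3 libraries, for example, had 0 placental cathepsin reads. The summed level differed by 1806 TPM between the groups. The difference was 4235 TPM under median-of-ratios scaling, 2903 TPM in scaling without Gm23935 and -1133 TPM in values as deposited. Among replicates 1 and 2 of both groups it was 4329 TPM, and between the replicate 3 libraries -3241 TPM. Leaving out 1 library gave 476 to 3305 TPM. The cause of these moves was not tested. At 3 libraries per group and a median SE of 0.21, small differences were not detectable.

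Ctsc, Ctsd and Ctsl kept their sign under all alternatives run. Leaving out 1 library turned the sign for Ctsa (-0.21 to 0.11), Ctsb (-0.00769 to 0.0906), Ctsh (-0.19 to 0.0292), Ctso (-0.14 to 0.0284), Ctss (-0.10 to 0.0934) and Ctsz (-0.0499 to 0.13). Median-of-ratios scaling gave 0.0549 for Ctsa, 0.0315 for Ctso and 0.0429 for Ctss. Scaling without Gm23935 gave 0.0185 for Ctsa and 0.00649 for Ctss. Voom gave 0.0271 for Ctsa, 0.00497 for Ctso and 0.0166 for Ctss. Removal of the length trend gave 0.0616 for Ctsa, 0.0400 for Ctso and 0.0290 for Ctss. Quality weights gave 0.14 for Ctso, 0.18 for Ctss and -0.0218 for Ctsz. Values as deposited gave -0.0318 for Ctsb and -0.00494 for Ctsz. Replicates 1 and 2 of both groups gave 0.0135 for Ctsh and 0.11 for Ctss, and the replicate 3 libraries 0.13 for Ctsa, -0.11 for Ctsk and -0.0241 for Ctsz.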
